A study of Rattus norvegicus with 4 samples.

Results

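Transcripts of 5 brain proteoglycan genes were followed in cultured rat cortical neurons that were depolarized with KCl. The genes are Bcan (brevican), Ncan (neurocan), Cspg5 (neuroglycan C), Sdc3 (syndecan 3) and Agrn (agrin). Every probe set that the platform annotation assigns to one of these symbols was taken, which gave 7 probe sets of the 1263 that are not array controls, and 5 of the 720 genes with a symbol. Bcan, Cspg5 and Sdc3 have 1 probe set each, and Ncan and Agrn have 2 each. In Affymetrix naming the suffix _s_at, carried by those of Cspg5 and Sdc3 and 1 for Ncan, marks a set whose probes can also match similar sequences. The genes were chosen by their family and with the KCl to control differences of these 4 arrays already known, so all such differences given for them are a description and carry no test.

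The neurons came from rat cortex at embryonic day 17 and were kept for 14 days in Neurobasal medium with B27 supplement. The KCl group (KCl 1 and KCl 2) received 25 mM KCl for 4 h, and the control group (control 1 and control 2) received PBS for the same time. The labels name no strain, sex or transgene, and since they do not tell if the 2 samples of each group were grown separately, the spread between them may be technical. The titles and the treatment protocols agree on the groups, whereas the free-text description of the KCl samples is the one used for untreated cells.

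A proteoglycan is a core protein that carries long sulphated sugar chains, chondroitin sulphate or heparan sulphate, through which it binds growth factors and matrix proteins. Brevican and neurocan belong to the lecticans, secreted chondroitin sulphate proteoglycans that bind hyaluronan and help build the perineuronal nets around neurons. Brevican is made largely by glia, and neurocan by both neurons and astrocytes. Neuroglycan C and syndecan 3 span the plasma membrane, and agrin is a heparan sulphate proteoglycan that exists in a secreted and a membrane-bound form. Which cells of these cultures made each transcript was not tested.

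The promoter windows of Bcan and Sdc3 are shown because these genes stood on opposite sides of the contrast. Each window holds the 250 bases before and the 50 bases after the start that RefSeq gives in the rat assembly GRCr8. The Bcan window is chr2:175765265-175765564 on the minus strand, and the Sdc3 window is chr5:148249542-148249841 on the plus strand. Both are written 5′ to 3′ in lower case, and capitals mark the one match to the motifs searched.
Bcan: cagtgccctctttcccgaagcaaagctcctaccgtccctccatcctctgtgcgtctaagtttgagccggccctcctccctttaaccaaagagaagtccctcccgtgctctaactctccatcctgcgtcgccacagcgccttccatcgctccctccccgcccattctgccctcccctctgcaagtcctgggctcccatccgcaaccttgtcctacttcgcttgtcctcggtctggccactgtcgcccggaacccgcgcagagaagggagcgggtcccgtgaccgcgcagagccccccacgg
Sdc3: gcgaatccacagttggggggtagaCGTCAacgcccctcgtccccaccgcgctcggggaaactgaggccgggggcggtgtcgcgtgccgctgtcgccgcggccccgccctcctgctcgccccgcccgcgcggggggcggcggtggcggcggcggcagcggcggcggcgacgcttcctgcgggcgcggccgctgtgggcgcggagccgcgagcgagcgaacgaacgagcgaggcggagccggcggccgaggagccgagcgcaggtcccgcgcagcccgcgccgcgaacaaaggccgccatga
Both strands were searched for the cAMP response element TGACGTCA, for its half-site TGACG, for the AP-1 site TGANTCA and for the EGR site GCGTGGGCG. The only match in these windows was the half-site in Sdc3, which lies on the opposite strand 226 bases before the start and which 21.2% of 33469 rat promoter windows of this length also hold. The full element, the AP-1 site and the EGR site occur in 1.83%, 7.33% and 0.544% of those windows. The Ncan and Agrn windows held no match to any of the 4 motifs. Guanine and cytosine make up 64.0% of the Bcan window and 79.3% of the Sdc3 window, against a median of 51.7% over all windows. A match is a description of these letters, and Cspg5 was not searched.

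Intensities are those deposited, on a linear scale in arbitrary units, and a log2 change is KCl minus control with the moderated standard error (SE) of a limma fit over all 947 probe sets that remained after the dimmest 25% were left out. All 7 proteoglycan probe sets remained. A fold difference between the groups is the log2 change taken back to the linear scale. A probe set is called at a Benjamini-Hochberg adjusted p below 0.05 over these 947. The median log2 change of the 947 was −0.10. Calls went to 10.8% of all probe sets tested, 5.49% higher and 5.28% lower after KCl. Among the proteoglycans 4 of 7 probe sets were called, Bcan higher and Cspg5, Sdc3 and 1 of the 2 for Agrn lower. Both KCl arrays lay above both control arrays for Bcan, as for 21.4% of all probe sets, and below them for 5 of the other 6 proteoglycan probe sets, as for 36.5% of all. Nothing is read from these counts, since the same contrast chose the genes.

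Brevican was the proteoglycan with more transcript after KCl. Bcan (U37142_at) had an intensity of 646.5 on KCl 1 and 447.6 on KCl 2, against 280.1 on control 1 and 316.6 on control 2. Both KCl arrays stood above both control arrays. The group means were 547 ± 141 for KCl and 298 ± 26 for control (SD, n = 2 arrays each). The log2 change was 0.85 ± 0.20 (SE), or 1.81-fold higher after KCl. The KCl arrays differed from each other by 1.44-fold and the control arrays by 1.13-fold, and the 4 ratios of a KCl to a control array ran from 1.41 to 2.31. Of the 947 probe sets, 70 had a higher log2 change. The call of Bcan was lost under 8 of 11 alternatives, which were quantile normalization, median centring, keeping the dim probe sets, a replicate block, a fit without the intensity trend, and the fits without KCl 1, control 1 or control 2. Its log2 change ran from 0.59 without KCl 1 to 1.12 without KCl 2.

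Neurocan, the other lectican, was dim on the array and was not higher after KCl on either probe set. Its probe set AF060879_s_at read 62.5 on KCl 1 and 32.3 on KCl 2, against 88.9 on control 1 and 89.9 on control 2. Its probe set M97161_at read 52.7 and 91.9 on KCl 1 and KCl 2, against 85.4 and 98.9 on control 1 and control 2. The highest reading among the probe sets for bacterial and yeast transcripts, used here as background, was 73.7, so that 3 of the 4 KCl readings of Ncan lay within background. All control readings of Ncan lay above 73.7, and the median background reading was 9.05. The KCl arrays lay below the control arrays on the first probe set and overlapped with them on the second. The log2 changes were −0.99 ± 0.43 and −0.40 ± 0.37, and neither was called. For AF060879_s_at the value was −1.47 without KCl 1 and −0.52 without KCl 2. Without KCl 1 the log2 change of M97161_at was −3.8e-05, so that its direction rests on that array.

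**Figure D1:**
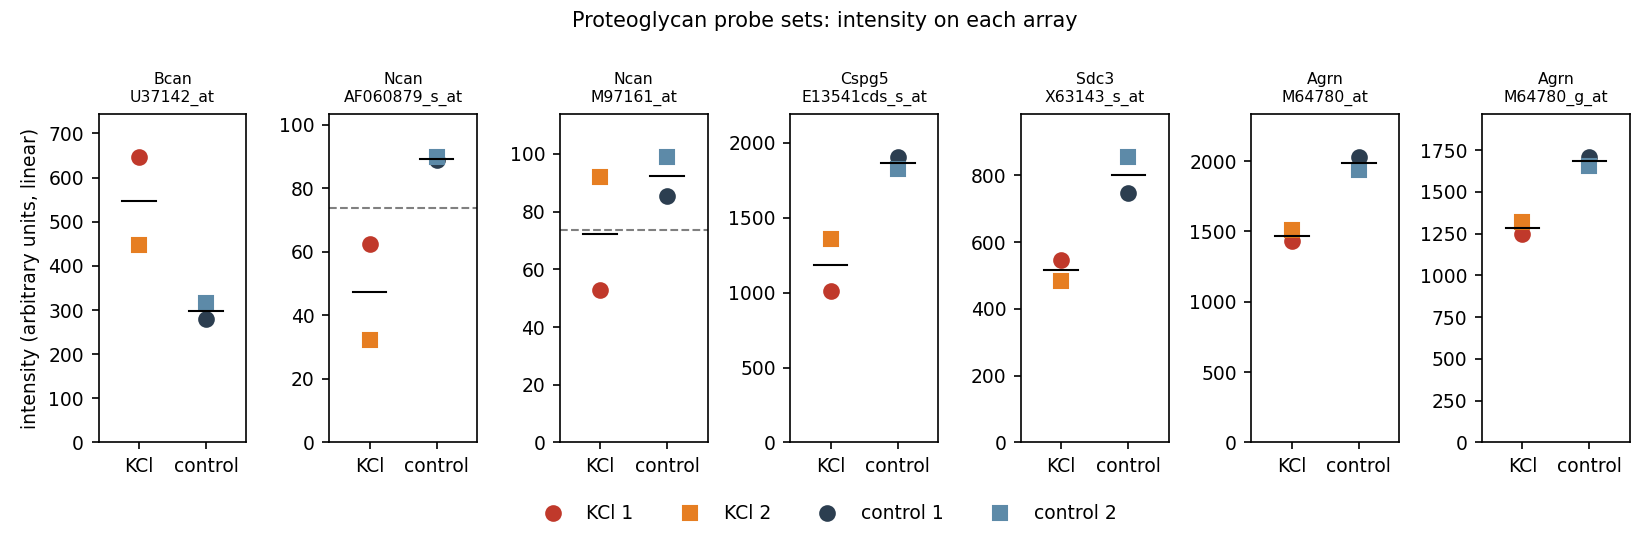
Intensity (arbitrary units, linear axis from 0) of the 7 proteoglycan probe sets on each array, with KCl arrays on the left and control arrays on the right of each panel, horizontal bars at the group means and a dashed line at the highest background reading, 73.7, in the Ncan panels. The KCl points lie above the control points for Bcan, below them for Cspg5, Sdc3, both Agrn probe sets and 1 Ncan probe set, and among them for the other Ncan probe set.

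Neuroglycan C, a membrane-spanning brain protein with an EGF-like domain, had less transcript after KCl. Cspg5 (E13541cds_s_at) read 1007.3 on KCl 1 and 1359.1 on KCl 2, against 1903.9 on control 1 and 1821.5 on control 2. Both KCl arrays were below both controls, and KCl 1 was the lower of the pair. The means were 1183 ± 249 for KCl and 1863 ± 58 for control (SD, n = 2 each). The log2 change was −0.67 ± 0.15 (SE), or 1.59-fold lower after KCl. The KCl arrays differed from each other by 1.35-fold and the controls by 1.05-fold. Without KCl 1 the log2 change was −0.45, and without KCl 2 it was −0.89.

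Syndecan 3, a heparan sulphate proteoglycan of axons and a receptor for the growth factor pleiotrophin, was lower by nearly the same factor. Sdc3 (X63143_s_at) read 547.1 on KCl 1 and 482.9 on KCl 2, against 748.1 on control 1 and 854.8 on control 2. The groups did not overlap, and the pairs were alike in their spread, with 1.13-fold between the KCl arrays and 1.14-fold between the controls. The level was 515 ± 45 after KCl and 801 ± 75 in controls (SD, n = 2 each), 1.56-fold lower, with a log2 change of −0.64 ± 0.14 (SE). Leaving out any 1 array kept the log2 change between −0.73 and −0.54.

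Agrin, which clusters acetylcholine receptors at the neuromuscular junction through Lrp4 and MuSK, gave nearly the same readings within each pair of arrays. Agrn M64780_at read 1432 on KCl 1 and 1508.8 on KCl 2, against 2028.7 on control 1 and 1937.3 on control 2. Agrn M64780_g_at read 1250.2 and 1318.3 on KCl 1 and KCl 2, against 1709 and 1655.5 on control 1 and control 2. On both probe sets the KCl arrays lay below the controls, and arrays of one group differed by at most 1.05-fold. The log2 changes were −0.43 ± 0.11 and −0.39 ± 0.11 (SE), or 1.35-fold and 1.31-fold lower. Only the first was called, although the log2 ratio of the pair moved by no more than 0.04 from its control mean on either KCl array. Both sets take their name from the same sequence entry, so they are not independent readings. Whether either tells the secreted from the membrane-bound form of agrin was not examined.

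The calls of Cspg5, Sdc3 and Agrn were lost in the same 5 alternatives, namely quantile normalization, the replicate block, the fit without the intensity trend, and the fits without control 1 and without control 2. Cspg5 was also lost with dim probe sets kept, and Agrn both there and without KCl 1. M64780_g_at was called with the dimmest 50% left out and without KCl 2.

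**Figure D2:**
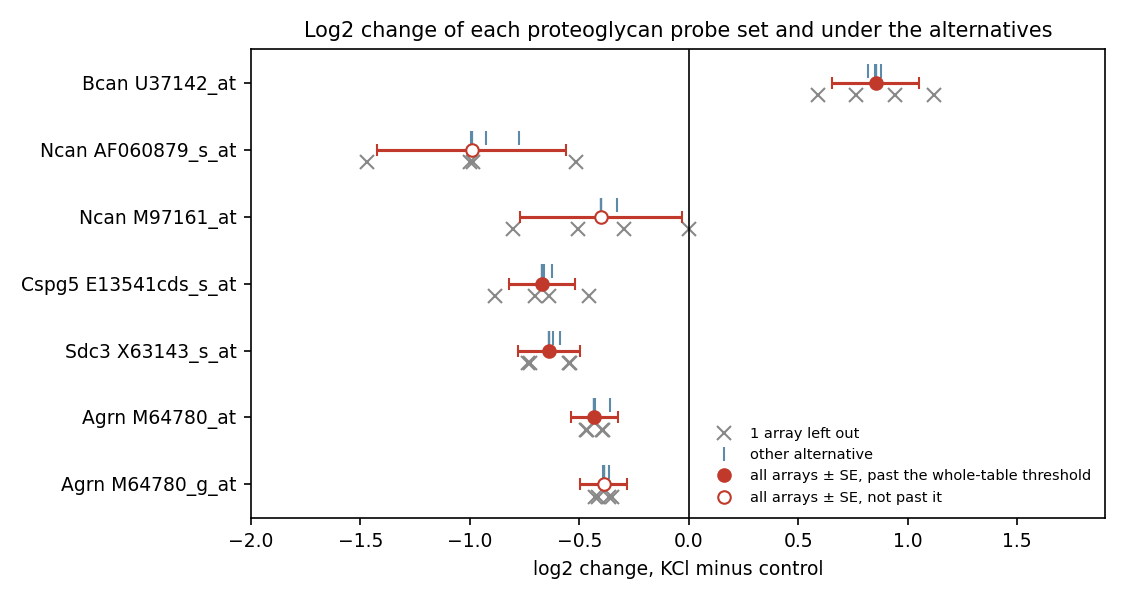
Log2 change (KCl minus control) of the 7 probe sets, with circles and bars for the value from all arrays ± SE, filled where the probe set passed the whole-table threshold, crosses for fits with 1 array left out and ticks for the other alternatives. Bcan lies right of 0 and the other 6 left of it, and the fit of M97161_at without KCl 1 falls at 0.

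Ratios between proteoglycans on the same array do not depend on how an array was scaled, and they are given here as the log2 ratio minus its control mean. The ratio of Bcan to the mean of Cspg5, Sdc3 and Agrn, each through its brightest probe set, was 1.75 on KCl 1 and 1.11 on KCl 2, against −0.08 on control 1 and 0.08 on control 2. Bcan thus stood 2.70-fold higher relative to these 3 genes after KCl. Taken singly, the ratio was 2.00 and 1.04 on KCl 1 and KCl 2 for Bcan to Cspg5, 1.67 and 1.32 for Bcan to Sdc3, and 1.59 and 0.98 for Bcan to Agrn. Control values of these ratios lay between −0.12 and 0.12. Ratios with Ncan are not given, since its readings lay within background on 1 or both KCl arrays.

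Among Cspg5, Sdc3 and Agrn the ratios moved less. The ratio of Cspg5 to Sdc3 was −0.34 and 0.27 on KCl 1 and KCl 2, against 0.13 and −0.13 on control 1 and control 2, so that the groups overlapped. The ratio of Sdc3 to Agrn was −0.08 and −0.33 on the KCl arrays, against −0.13 and 0.13 on the control arrays, again with overlap. The ratio of Cspg5 to Agrn was −0.42 on KCl 1 and −0.06 on KCl 2, against −0.001 and 0.001 on control 1 and control 2, and did not overlap. The order Cspg5, Sdc3, Agrn of the log2 changes is therefore not separated between Cspg5 and Sdc3 or between Sdc3 and Agrn. With 2 arrays per group an exact two-sided permutation test cannot give a p below 0.333, and none was run on these ratios.

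**Figure D3:**
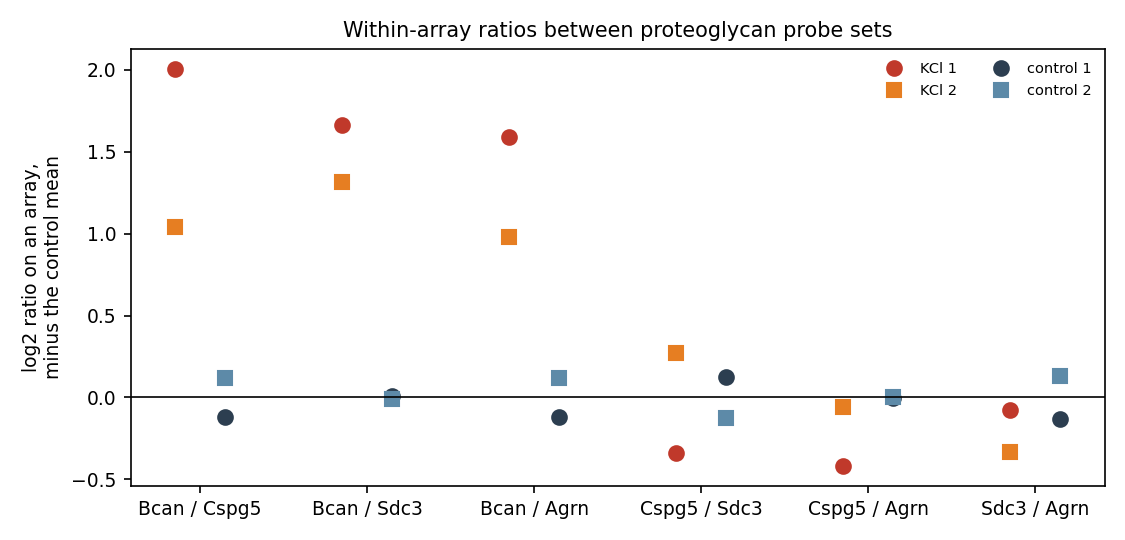
Log2 ratio of 2 proteoglycan probe sets on the same array, minus the mean of that ratio over the control arrays, for 6 pairs, with KCl arrays left and control arrays right of each tick. The ratios that hold Bcan lie between 0.98 and 2.00 on the KCl arrays, and those among Cspg5, Sdc3 and Agrn between −0.42 and 0.27.

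The probe sets with the most similar pattern were found by the Euclidean distance between log2 intensities over the 4 arrays, each centred on its own mean, among 846 tested probe sets of other genes. For Bcan they were Igfbp2, an insulin-like growth factor binding protein (distance 0.14), Apoe, the main apolipoprotein of the brain (0.17), and Nes, the intermediate filament nestin of progenitor cells and immature glia (0.20). Igfbp2 (M91595exon_s_at) read 1660.2 and 1285.2 on KCl 1 and KCl 2, against 815.5 and 905.1 on control 1 and control 2. Nes (M34384_at) read 375.5 and 271.2 on KCl 1 and KCl 2, against 194.2 and 189.8 on control 1 and control 2. All 3 shared with Bcan the higher reading on KCl 1 than on KCl 2.

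For Cspg5 the nearest patterns were Ptk2b, a calcium-activated tyrosine kinase (distance 0.06), Bcl2l1, an anti-apoptotic Bcl2 relative (0.09), and Rab28, a small GTPase (0.09). For Sdc3 they were another probe set of Bcl2l1 (0.09), the lipoprotein receptor gene Scarb1 (0.13) and the β-arrestin gene Arrb2 (0.14). For Agrn they were the amino acid transporter gene Slc6a15 (0.06), the potassium channel gene Kcnj11 (0.06) and the GABA-B receptor gene Gabbr2 (0.07). For Ncan, through M97161_at, they were Ptgfr (0.05), Kcnc1 (0.11) and another probe set of Kcnj11 (0.22). Between the proteoglycans themselves, Bcan lay 1.37 to 1.68 from the other 4, which lay 0.33 to 0.73 from each other. All distances of Ncan include a KCl 1 reading of 52.7, which is within background. Over 4 arrays such a distance mostly reflects the KCl difference that chose the genes, and it carries no p.

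Few partners of these proteoglycans are on the array. The other proteoglycan core proteins, lectican partners, ligands and receptors, proteases and other matrix glycoproteins listed for this comparison came to 86 genes, of which 11 had a probe set and 9 were tested. None was called by limma in either direction, 3 had an unadjusted p below 0.05 (25.4% of all 570 genes did), and their median log2 change was 0.16 against −0.09 over the 570 genes tested. By gene, 10.2% of all tested were called, 5.09% higher and 5.09% lower. No lectican partner (hyaluronan synthases, link proteins, tenascins) and none of the other matrix glycoproteins had a probe set with its symbol.

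Among ligands, receptors and signalling partners, 6 of 18 genes were tested and 0 were called, with 2 unadjusted p-values below 0.05 in limma. Fgfr1, a fibroblast growth factor receptor that uses heparan sulphate as a cofactor, read 512.9 on KCl 1 and 459.8 on KCl 2, against 369.5 on control 1 and 383.2 on control 2. Its log2 change was 0.37 ± 0.15 (limma adjusted p = 0.16), and its dimmer probe set S54008_i_at had 0.65 ± 0.18 (limma adjusted p = 0.051). The neuronal adhesion protein gene Cntn1 read 1074.8 and 1056.7 on KCl 1 and KCl 2, against 1190.1 and 1495.5 on control 1 and control 2, with a log2 change of −0.32 ± 0.14 (limma adjusted p = 0.18).

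Adhesion molecules that bind neurocan had small log2 changes. L1cam had a log2 change of −0.004 ± 0.10 and Ncam1 of 0.16 ± 0.13 on its brightest probe set and −0.06 to 0.05 on the other 2. Fyn, a kinase found in complexes with syndecan 3, had −0.19 ± 0.11 (limma adjusted p = 0.29), and Fgf2 lay within background on all arrays.

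Of 17 matrix proteases and inhibitors, 2 were tested and 0 called, with 1 unadjusted p below 0.05 in limma. Serpine2, which encodes the glia-derived protease inhibitor nexin 1, read 375.5 on KCl 1 and 218.4 on KCl 2, against 184.6 on control 1 and 202 on control 2, with a log2 change of 0.57 ± 0.26 (limma adjusted p = 0.21). Its KCl 1 reading was the highest by far, and it was called as higher without KCl 2. Plat, tissue plasminogen activator, lay within background throughout (log2 change 1.55 ± 0.61; limma adjusted p = 0.16). Of 25 other proteoglycan core proteins, 1 was tested, the part-time proteoglycan gene Tgfbr3, within background, and it was not called (0 unadjusted p below 0.05 in limma).

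Of 30 cell type markers tested, 7 were called higher and 4 lower, beside 5.09% higher and 5.09% lower of all 570 genes tested. Of 13 astrocyte markers 7 were tested, 6 were called higher and none lower, and Slc1a2 lay within background (median log2 change 1.27). The summed intensity of the 7 was 12551 on KCl 1 and 9974 on KCl 2, against 5484 on control 1 and 5220 on control 2. Apoe (X04979_at), the brightest, read 6925.2 and 5196 on KCl 1 and KCl 2, against 2700.2 and 2297.8 on control 1 and control 2 (log2 change 1.27 ± 0.15; limma adjusted p = 0.0011). S100b and Slc1a3 were higher by 2.59-fold and 2.41-fold on their brightest probe sets, and Gja1 was called higher from control readings within background. Dimmer tested probe sets of these markers did not all share the call. A dimmer probe set was called higher for each of Slc1a3, Glul and Apoe. The uncalled ones of Slc1a3 had log2 changes of 0.27 ± 0.29 and 1.04 ± 0.53. Those of Glul had 0.41 ± 0.16 and 0.52 ± 0.26, and that of S100b, within background, had 0.37 ± 0.52. No probe set carries the symbol Gfap in the annotation, although it may be among the 118 without a symbol. Relative to the mean log2 level of the 5 markers above background on all arrays (S100b, Slc1a3, Glul, Apoe and Vim, picked after their values were seen), and as a difference from its own control mean, Bcan stood at −0.23 on KCl 1 and −0.37 on KCl 2, against −0.09 on control 1 and 0.09 on control 2. In such bulk samples more cells of a type and more RNA per cell cannot be told apart, and the part of the astrocyte markers in the Bcan result was not tested.

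Of 13 neuron markers listed, 9 were tested, Snap25 was called higher (log2 change 0.43 ± 0.10; limma adjusted p = 0.032) and none lower, and the median log2 change was −0.07. Their summed intensity was 30836 and 31445 on KCl 1 and KCl 2, against 32421 and 33721 on control 1 and control 2. Relative to the mean log2 level of the 8 above background on all arrays (all but Nefh), and again as a difference from the control mean, Cspg5 stood at −0.82 on KCl 1 and −0.42 on KCl 2, Sdc3 at −0.48 and −0.70, and Agrn at −0.40 and −0.36. Control values of these 3 lay between −0.09 and 0.09. The call of Snap25 rests on its brightest probe set, since its other probe sets, with log2 changes from 0.26 to 0.32, were not called.

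Of 7 inhibitory neuron markers listed, 5 were tested and 4 were called lower, none higher, with a median log2 change of −1.58. Their summed intensity was 2573 and 3041 on KCl 1 and KCl 2, against 8608 and 8033 on control 1 and control 2. Gad1, an enzyme of GABA synthesis, had −1.79 ± 0.18 and Sst, the somatostatin gene, −1.55 ± 0.11 (limma adjusted p = 0.00048 and 4.1e-05). Slc32a1 had −1.58 ± 0.13 and Kcnc2 −2.06 ± 0.34 (limma adjusted p = 0.00010 and 0.0069), and the KCl readings of Kcnc2 lay within background. Dimmer tested probe sets of Slc32a1 (−1.09 ± 0.42) and Kcnc2 (−2.76 ± 0.86) were not called. That of Kcnc2 lay within background on all arrays, and that of Slc32a1 on both KCl arrays. Without control 1 or without control 2, Sst was the 1 gene of all these cell type lists that was called, and without the intensity trend Sst and Slc32a1 were. The part of these markers in the lower Cspg5, Sdc3 and Agrn readings was not tested.

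**Figure D4:**
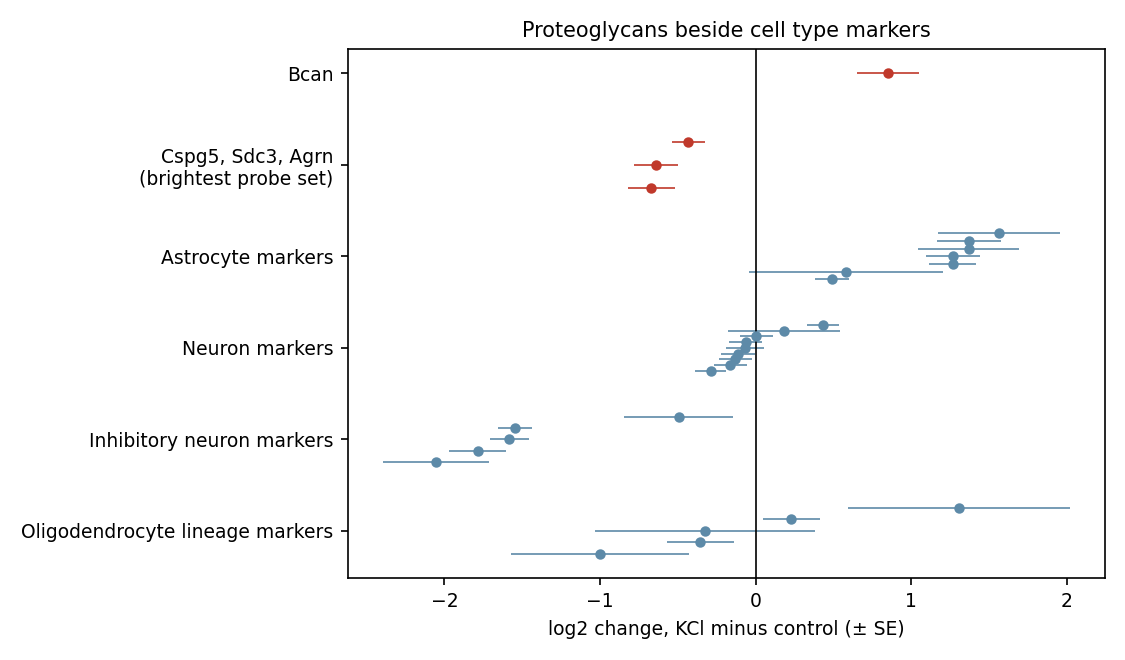
Log2 change (KCl minus control) ± SE of Bcan, of Cspg5, Sdc3 and Agrn through their brightest probe sets, and of each tested astrocyte, neuron, inhibitory neuron and oligodendrocyte lineage marker. Bcan, at 0.85, lies on the side of the astrocyte markers (median 1.27), and Cspg5, Sdc3 and Agrn, from −0.67 to −0.43, lie between the medians of the neuron markers (−0.07) and the inhibitory neuron markers (−1.58).

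No marker of the other cell types was called. None of 5 tested oligodendrocyte lineage markers was called by limma and 0 had an unadjusted p below 0.05, with Pdgfra, Mbp and Mog within background, and Sox10 left out as too dim. The myelin genes Mag and Cnp were above background. Mag (X06554cds_s_at) read 294.2 and 380.5 on KCl 1 and KCl 2, against 280.3 and 290.1 on control 1 and control 2, and Cnp read 137.8 and 154 on KCl 1 and KCl 2, against 174.3 and 199.2 on control 1 and control 2. The dimmer Mag probe set M22357_g_at went the other way (log2 change −0.26 ± 0.21). It read 155.1 and 179.1 on KCl 1 and KCl 2, against 214.9 and 186 on control 1 and control 2. Both tested microglial markers, Itgam and Ccl2, lay within background (0 called, 0 unadjusted p below 0.05 in limma). Of 2 tested endothelial and fibroblast markers 0 were called, both were above background, and Vcam1 had a log2 change of 0.72 ± 0.27 (limma adjusted p = 0.14). As to RNA quality, hexokinase control probe sets gave a 3′ to 5′ ratio of 2.49 and 2.67 on KCl 1 and KCl 2, against 2.25 and 2.00 on control 1 and control 2. Those of Gapdh and β-actin ran from 1.17 to 1.23 and from 1.08 to 1.12 and overlapped between the groups, and the part of RNA quality in the proteoglycan values was not tested.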

How the data were processed

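Per the labels' protocols, biotinylated cRNA was hybridized to Affymetrix arrays for neurobiology. The deposited table holds linear probe set intensities, and the software and scaling behind them are not stated in the labels. The 2% trimmed means of the 4 arrays lay between 502.0 and 502.4, so the values were used as deposited and taken to log2. Of 1322 probe sets, 59 were array controls, and 316 of the other 1263 were left out as the dimmest 25%. Symbols came from the platform annotation (1137 probe sets with 1 symbol, 8 with several, 118 with none). Background came from 19 control probe sets for bacterial or yeast transcripts.

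KCl was compared with control in limma 3.58.1 (R 4.3.3), with lmFit and with eBayes following the mean intensity, two-sided, adjusted by Benjamini-Hochberg over 947 probe sets. Log2 intensities correlated at 0.97 within each pair of arrays and at 0.93 to 0.94 between groups. The fit was tested on simulated data. The number of arrays limits the precision, with a median SE of 0.21 for a log2 change. A gene entered a list through its brightest tested probe set. The proteoglycans, lists and naming rule were chosen with earlier results of these data known. The rule named every proteoglycan probe set, the 3 nearest patterns per gene, and from each list the called genes or those with the smallest p. Genes named beyond it were chosen after their values were seen.

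Alternatives were quantile normalization, centring on the median, a pseudocount of 16, no filter or the dimmest 50% left out, a replicate block, each array left out in turn, and eBayes without the trend.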

Additional observations from a re-analysis of the deposited data

How the results depend on the processing

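The direction of all 7 proteoglycan probe sets held in the 75 fits made under 11 alternatives, although M97161_at of Ncan reached −3.8e-05 without KCl 1. Most of these fits could not have reversed a direction, so little is read from this. The filter settings, the replicate block and the fit without the trend leave a log2 change as it is. Leaving out 1 array cannot reverse it where the groups do not overlap. The calls, which could change, depended on the processing. Of 4 proteoglycan probe sets called, 0 were called with quantile normalization, with the replicate block and without the intensity trend, and 1 (Sdc3) with dim probe sets kept. Leaving out 1 array at a time, the count ran from 0 (without control 1 or control 2) to 5 (without KCl 2). Over the whole table the count of 102 became 50 with the replicate block and 21 without the intensity trend, and ran from 11 without control 2 to 178 without KCl 2. The 0 called matrix partners ran from 0 to 1, and the 11 called cell type markers became 6 with the replicate block and 2 without the trend and ran from 1 to 11. Where an array is left out, the lone sample is assumed to vary like the other group. The replicate numbers gave no sign of pairing, since the deviations of KCl 1 and control 1 from their group means correlated at −0.03 over the 947 probe sets, and the causes of these shifts were not tested. Signal near background limits Ncan most, whose probe sets could not be fitted with the dimmest 50% left out.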
